A study of Mus musculus with 20 samples.

Results

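The accessible sites of mouse chromosome 8 were followed across 10 cell lines that differ in the Ctcf transgene they express. Peaks of all 10 deposited peak lists on chromosome 8 (build mm10) were merged wherever at least 1 bp overlapped, which gave 12373 sites of 222457 over all chromosomes, or 5.56%. The chromosome was chosen by measured values of these same lists, its share of peaks and its raised bins in R448Q and H455R, so those values are given as description. CTCF recognises DNA through its zinc fingers and, together with cohesin, holds chromatin loops and domain borders. Most of its strong sites lie in open chromatin, and so do the start sites of active genes. Mouse embryonic stem cell lines are known to gain or lose chromosomes or parts of them in long culture, with chromosome 8 among those most often gained. Copy number was not measured here.

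The study asked how single substitutions in the DNA-binding domain of CTCF change chromatin, and used Omni-ATAC, in which a transposase cuts and tags accessible DNA. The cells were feeder-free E14Tg2a mouse embryonic stem cells (strain 129/Ola) with serum, leukemia inhibitory factor and inhibitors of GSK3 and MEK. In every line, the WT control included, endogenous CTCF carries an auxin-inducible degron and was removed with 500 µM indole-3-acetic acid, while 1 µg/ml doxycycline switched on the transgene, both for 2 days. The transgenes encoded WT CTCF or the mutants R339Q, R342C, S354F, K365T, R377C, R377H, Q418R, R448Q and H455R, with 2 replicates each. Each genotype is 1 modified line, so the substitution and the line cannot be told apart. The authors deposited 1 peak list per genotype over both replicates, so no spread between replicates exists, no test between genotypes was possible, and the exact (Clopper-Pearson) 95% intervals given cover counting error over peaks only. No label says whether the replicates were grown as separate cultures.

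The lists held between 121032 peaks in R339Q and 171719 in WT, and H455R (159957) was the second longest. Expected coverage, a depth measure read from the steps of the fold enrichment values, was 5.96 in WT, 5.45 in R448Q and 4.66 in H455R, against 3.49 to 4.41 in the other 7 lists. Thus the lists in which chromosome 8 stood out were also among the 3 deepest, and the part of depth was not tested beyond the settings below. The library codes in the peak names were consecutive in 8 lists, R448Q and H455R among them, and lay 28 apart in WT and 42 apart in K365T. All 8 stem cell markers, among them Pou5f1, Nanog and Sox2, had a peak within 1 kb of an annotated gene end in all 10 lists. So did 4 of 6 fibroblast, 1 of 4 primitive endoderm, 1 of 3 trophoblast, both endothelial, 1 of 2 macrophage markers and the erythroid marker Klf1, while Gata4, Pdgfra and Msr1 had such a peak in 0 lists. Many gene starts are open without expression, so these counts describe the gene ends and do not exclude other cells.

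The promoter windows below are picked examples at stable and variable sites of chromosome 8 and do not stand for such sites in general. Each holds 250 bases before and 50 bases after an annotated gene start, from RefSeq (GRCm38.p6, the same chromosomes as mm10), written 5′ to 3′ on the strand of the gene. Capitals mark a match to a core of the CTCF motif, searched on both strands without overlap with another motif: CC, any 3 bases, AGG, any base, GGC. Calr encodes calreticulin, a calcium-binding chaperone of the endoplasmic reticulum, and Pbx4 a homeodomain protein. Both windows lie in sites held by all 10 lists. The Adprhl1 window overlaps a site found in 6 lists and absent from K365T, R377H, Q418R and H455R. The window of the predicted gene Gm39160 overlaps a site of the H455R list alone. That site, chr8:34472866-34473116, ends at the edge of the marked match and does not hold it. Cib3, which encodes a calcium- and integrin-binding protein, has a window that overlaps a site of R448Q and H455R only. Zfp42 encodes the stem cell factor REX1 and its window lies in a site of all 10 lists. The last 2 windows hold no match.
Calr (chr8:84846882-84847181, - strand): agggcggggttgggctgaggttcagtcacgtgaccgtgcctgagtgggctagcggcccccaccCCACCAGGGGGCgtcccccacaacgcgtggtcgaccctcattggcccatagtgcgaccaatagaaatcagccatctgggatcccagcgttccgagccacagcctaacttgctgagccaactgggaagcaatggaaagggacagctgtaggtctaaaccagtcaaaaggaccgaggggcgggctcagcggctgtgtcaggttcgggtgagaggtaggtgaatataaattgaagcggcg
Pbx4 (chr8:69832374-69832673, + strand): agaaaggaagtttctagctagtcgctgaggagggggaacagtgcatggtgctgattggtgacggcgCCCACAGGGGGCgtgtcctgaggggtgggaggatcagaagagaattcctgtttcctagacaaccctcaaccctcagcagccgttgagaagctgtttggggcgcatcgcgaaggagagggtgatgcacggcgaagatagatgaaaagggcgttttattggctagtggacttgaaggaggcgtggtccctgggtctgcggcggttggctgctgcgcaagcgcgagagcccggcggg
Adprhl1 (chr8:13254113-13254412, - strand): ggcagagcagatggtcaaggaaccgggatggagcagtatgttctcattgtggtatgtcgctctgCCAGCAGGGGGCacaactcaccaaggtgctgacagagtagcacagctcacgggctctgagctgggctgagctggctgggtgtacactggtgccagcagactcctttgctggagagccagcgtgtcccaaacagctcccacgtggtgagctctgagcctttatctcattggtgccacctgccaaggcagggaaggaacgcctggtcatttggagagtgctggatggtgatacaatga
Gm39160 (chr8:34472950-34473249, - strand): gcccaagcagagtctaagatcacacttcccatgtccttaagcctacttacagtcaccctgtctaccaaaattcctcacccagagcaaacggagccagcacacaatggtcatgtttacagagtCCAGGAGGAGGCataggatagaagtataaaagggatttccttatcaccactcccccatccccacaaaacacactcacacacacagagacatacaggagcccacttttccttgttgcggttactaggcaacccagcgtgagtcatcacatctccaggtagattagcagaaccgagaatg
Cib3 (chr8:72212788-72213087, - strand): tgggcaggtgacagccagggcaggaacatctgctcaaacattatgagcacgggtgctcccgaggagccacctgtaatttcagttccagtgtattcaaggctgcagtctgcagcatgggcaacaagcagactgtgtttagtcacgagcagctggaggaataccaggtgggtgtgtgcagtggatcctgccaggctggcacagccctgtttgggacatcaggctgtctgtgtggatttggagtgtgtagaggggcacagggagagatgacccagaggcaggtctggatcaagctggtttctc
Zfp42 (chr8:43306960-43307259, - strand): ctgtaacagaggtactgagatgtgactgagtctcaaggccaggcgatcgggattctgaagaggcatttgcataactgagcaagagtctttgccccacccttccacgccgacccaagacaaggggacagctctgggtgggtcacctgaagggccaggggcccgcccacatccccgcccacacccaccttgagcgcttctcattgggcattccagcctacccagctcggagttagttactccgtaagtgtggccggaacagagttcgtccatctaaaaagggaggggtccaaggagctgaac
The Calr match begins 187 bases before the start, and the site ranked between the 95.7th percentile of the S354F list and the 98.4th of H455R. The Pbx4 site stayed between the 97.2nd and 98.8th percentiles. The Adprhl1 site reached only the 24.8th to 54.4th percentiles in the 6 lists that hold it. The Gm39160 site stood at the 27.0th percentile of H455R. A percentile here is the share of peaks of the same list with a lower fold enrichment, counting ties by their average rank.

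Of 1439 promoter windows on chromosome 8, 48 held a match (3.34%), against 3.43% of all 32817 windows. Among windows that overlapped a site of all 10 lists, 35 of 731 held one (4.79%). Windows over sites of 1 to 9 lists had 6 of 114 (5.26%), and windows with no site had 7 of 594 (1.18%). Over all chromosomes the shares were 5.48% for sites of all 10 lists, 3.77% for 1 to 9 lists and 1.16% for no site. Sites of all 10 lists thus had a higher share there than sites of 1 to 9 lists, the reverse of chromosome 8. The chromosome 8 value for 1 to 9 lists rests on only 6 windows with a match. A match is a description of these letters and not a measured binding site.

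Chromosome 8 held a larger part of the H455R and R448Q lists than of any other. Its share of peaks was 6.11% in H455R (9775 peaks, interval 5.99 to 6.23) and 6.00% in R448Q (8735 peaks, interval 5.88 to 6.13). K365T followed with 5.38% (7514 peaks, interval 5.27 to 5.50). The share was 5.22% in Q418R (6848 peaks), 5.16% in R377C (7789), 5.12% in R342C (7222), 5.06% in S354F (7111), 5.06% in R339Q (6120), 5.04% in R377H (7368) and 4.99% in WT (8574). The share was lowest in WT, the longest and deepest list.

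**Figure D1:**
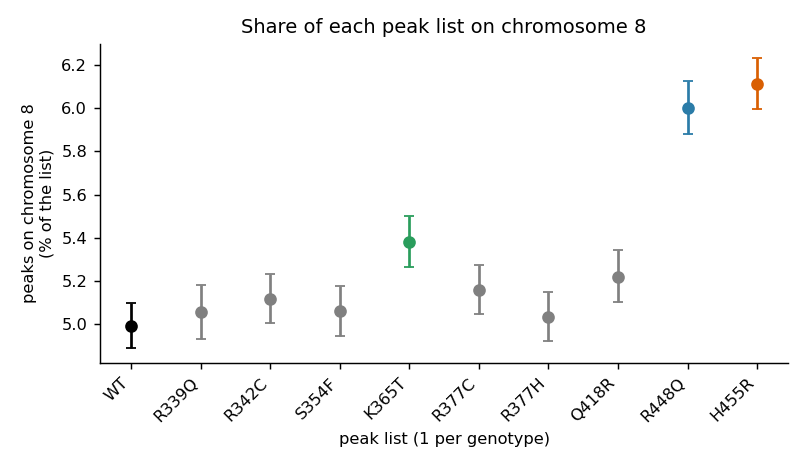
Share of each peak list that lies on chromosome 8 (%, axis not starting at 0), with 1 point per genotype and bars for the exact 95% interval over peaks. H455R (6.11%) and R448Q (6.00%) lie above the other 8 lists, which run from 4.99% to 5.38%.

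Relative to the median share of the other 9 lists, chromosome 8 stood at a log2 ratio of 0.26 in H455R and 0.23 in R448Q. K365T had 0.07, and the other 7 lists lay between -0.05 and 0.03. In H455R no other autosome exceeded 0.02, and the lowest, chromosome 17, was at -0.14. In R448Q chromosome 3 (0.33) and chromosome 1 (0.31) stood higher than chromosome 8. Chromosome 8 was thus the highest autosome in H455R and the third highest in R448Q.

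The lists also differed in where along the chromosome the excess lay. In bins of 5 Mb, H455R exceeded the median of the other lists by more than 0.2 (log2) in 19 of 26 bins, against a background of 4.66% of the 494 bins of the genome. R448Q did so in 17 of 26 bins, with a background of 17.8%, and K365T in 2 of 26, with a background of 6.07%. These backgrounds include chromosome 8 itself. Of the 468 bins of the other chromosomes, 4 were raised in H455R, 71 in R448Q and 28 in K365T. The raised bins of chromosome 8 belong to the values that chose the chromosome, so nothing is read from the counts beyond their position.

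In H455R the 6 bins of the first 30 Mb ran from -0.22 to -0.06, and all 20 bins beyond ran from 0.15 to 0.53. The highest were the bins from 90 to 95 Mb (0.53), from 55 to 60 Mb (0.53) and from 40 to 45 Mb (0.50). In R448Q all 26 bins were above 0, from 0.03 between 70 and 75 Mb to 0.71 between 55 and 60 Mb. Its second bin, from 5 to 10 Mb, reached 0.63, where H455R had its lowest value of -0.22. The profile of H455R therefore changed sign along the chromosome and that of R448Q did not.

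**Figure D2:**
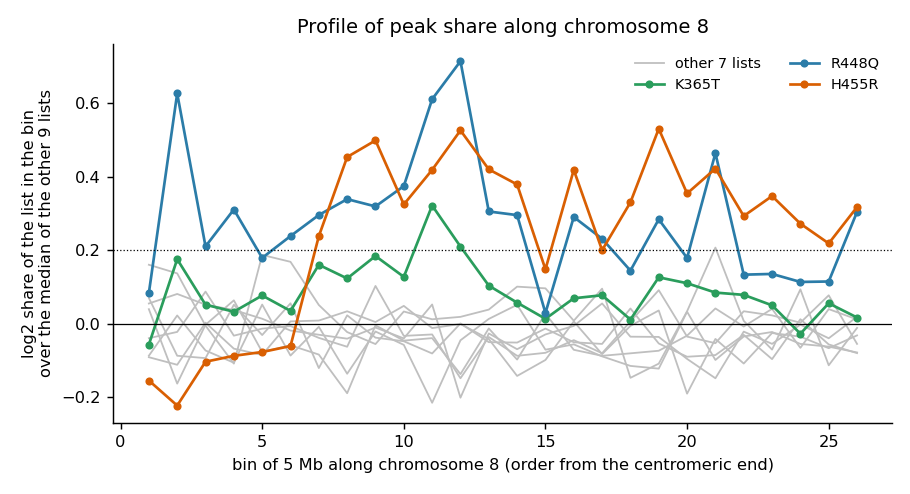
Log2 ratio of each list's share in a 5 Mb bin over the median of the other 9 lists, by bin from the centromeric end, with 1 line per list and the 0.2 level dotted. H455R is below 0 in the first 6 bins and between 0.15 and 0.53 after them, while R448Q is above 0 in all 26 bins.

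Counted over the whole stretches, the first 30 Mb held 0.921% of the H455R list (1473 peaks) and 1.15% of R448Q (1678 peaks). The stretch beyond 30 Mb held 5.19% of H455R (8302 peaks, log2 0.33) and 4.85% of R448Q (7057 peaks, log2 0.24). For WT the values were 0.950% and 4.04%. The 30 Mb border was set after the bins had been seen. In windows of 1 Mb, H455R had 165 peaks from 25 to 26 Mb against 174 in WT and 178 in R448Q. From 35 to 36 Mb it had 82, against 51 in WT and 70 in R448Q. Between 28 and 31 Mb each window held at most 24 peaks in any list, so the border is not located more finely.

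In R448Q, in K365T and, beyond 30 Mb, in H455R the ratio was higher in bins with few peaks. Across the 26 bins of R448Q the ratio and the log of the median peak number had r = -0.77 and rho = -0.64. Across the 20 bins of H455R beyond 30 Mb they had r = -0.61 and rho = -0.75, and across the 26 bins of K365T r = -0.56 and rho = -0.45. Bins of 1 list share their libraries and their depth, and the ratio of a bin with few peaks varies more. The peak numbers of the other lists also enter both quantities, which can by itself lower r and rho. No such values are given for the remaining lists, so these are descriptions only. Bins with few peaks were not high in every list: H455R had -0.22 from 5 to 10 Mb, WT -0.22 from 50 to 55 Mb and R342C -0.20 from 55 to 60 Mb. The bin from 70 to 75 Mb was the lowest beyond 30 Mb in both lists, at 0.15 in H455R and 0.03 in R448Q.

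Most of the chromosome's strong sites were common to every genotype. All 10 lists held 4253 of the 12373 sites (34.4%), close to the 36.5% of sites over the genome. A single list held 2624 (21.2%), against 18.0% on the other chromosomes. Sites had a median width of 437 bp and covered 6.89 Mb together, and 90.3% of them had at most 1 peak in each list. Sites in all 10 lists had a median percentile of 69.4 and lay at a gene end in 20.2% of cases, inside a protein-coding gene in 45.7% and between genes in 34.2%. Gene ends were counted within 1 kb of either annotated end, since the gene table gives no strand.

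The 8 strongest sites of all 10 lists were named by their median percentile. The strongest, inside Psd3, which encodes an exchange factor for Arf GTPases, lay at chr8:67930813-67931391 and stood at or above the 99.9th percentile in every list. Those at gene ends belonged to Ttc29, Fgl1, which encodes a fibrinogen-like secreted protein, Msmo1, an enzyme of cholesterol synthesis, Dhx38, a helicase of pre-mRNA splicing, Lzts1 and Trappc11, a subunit of a vesicle-tethering complex. The eighth lay 10.9 kb from Mmaa, a gene of cobalamin metabolism. The lowest percentile of the 8 was 99.3, for Dhx38 in R339Q, so these sites ranked near the top in every genotype.

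Sites held by 1 list were most numerous in H455R and R448Q. On chromosome 8, H455R alone held 981 sites and R448Q alone 642, where WT alone held 307. The other 7 lists held 38 in R339Q, 88 in R342C, 89 in S354F, 110 in R377C, 113 in R377H, 113 in Q418R and 143 in K365T. Over the genome H455R alone held 3.14% of all sites and R448Q alone 3.04%. Chromosome 8 carried 14.0% of the sites that H455R held alone and 9.48% of those of R448Q, against 2.95% to 5.97% for the other 8 lists. The WT list, with 9310 such sites over the genome, had only 3.30% of them on chromosome 8.

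Of the sites of H455R alone, 943 of 981 lay beyond 30 Mb and 38 before it. They are peaks of the list whose profile set that border, so their split restates the profile. These were 96.1% beyond 30 Mb, where 81.8% of all sites of the chromosome lie. Of the R448Q sites, 481 lay beyond (74.9%) and 161 before. In both lists such sites were weak, with a median percentile of 21.0 in H455R and 24.2 in R448Q, and in H455R 0 of the 981 reached the top 20% of the list. They were narrow, with a median width near 240 bp, and lay at gene ends in 3.57% (H455R) and 4.52% (R448Q) of cases.

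**Figure D3:**
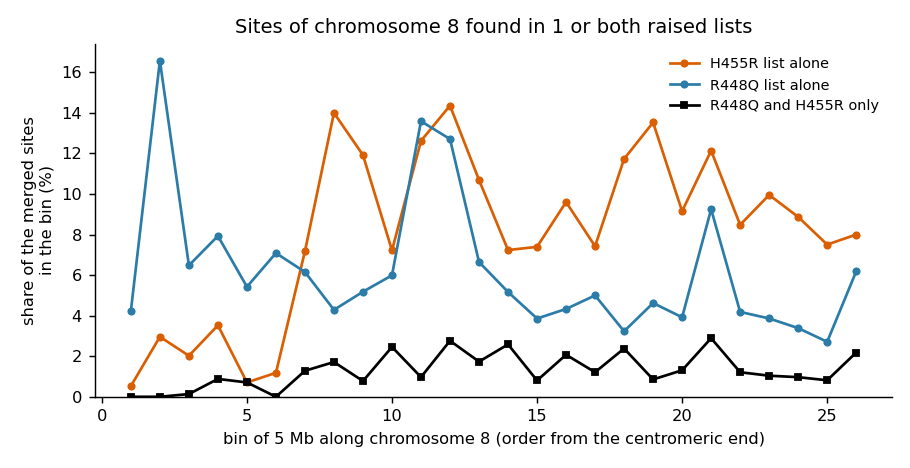
Share of the merged sites in each 5 Mb bin of chromosome 8 (%) that were held by H455R alone, by R448Q alone, or by both and no other list. The H455R line stays below 4% in the first 6 bins and above 7% after them, while the R448Q line has its highest value in the second bin.

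The strongest site of H455R alone lay 71.9 kb from Smad1, which encodes a transducer of bone morphogenetic protein signals, at chr8:79471323-79471582, with a fold enrichment of 7.95 (76.5th percentile). The next ones lay 33.9 kb from Cbln1, a synaptic organiser gene, at the 72.3rd percentile, 39.1 kb from the claudin gene Cldn23 at the 67.4th and 192 kb from Adam34l at the 66.0th. The strongest of R448Q alone lay 7.91 kb from Tarbp1 at chr8:126483007-126483320, with a fold enrichment of 10.8 (85.9th percentile). It was the only one of the 642 in the top 20% of its list. The following ones lay 14.8 kb from Poteg and inside Nrp1, a co-receptor for semaphorins and VEGF, both at the 78.6th percentile. The fourth lay 86.1 kb from Zfp42, at the 77.0th percentile. Among the strongest sites of the other lists alone, that of Q418R lay 14.4 kb from the phosphatase gene Dusp26 at the 72.8th percentile, and that of K365T 9.60 kb from Fgf20, a fibroblast growth factor gene, at the 67.0th. That of R377H lay at the gene end of Gas8, which encodes a dynein regulator of cilia, at the 65.6th percentile, and that of WT inside Itfg1 at the 62.6th. The strongest sites of R339Q, R342C, S354F and R377C alone stood between the 34.6th and 47.1st percentiles. A list with few sites of its own could thus still hold one of middle or upper rank.

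R448Q and H455R, and no other list, shared 155 sites on chromosome 8. Over the genome the pair shared 571 such sites (0.257% of all sites), so chromosome 8 carried 27.1% of them with 5.56% of the sites. The 155 were 1.25% of the chromosome's sites, where chromosome 3 had 0.485% and chromosome 1 0.384%. They made up 1.85% of the R448Q sites and 1.65% of the H455R sites on the chromosome. Both lists were also the longest on chromosome 8, and the part of list length in this number was not tested. With every list limited to its 121032 strongest peaks the pair shared 104 sites on chromosome 8, 33.0% of its 315, and ranked 1 there. With the stronger 50% of each list it shared 56 of 262 (21.4%). In that setting it ranked 2, after WT and H455R with 94 and before K365T and R448Q with 51.

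Among all 45 pairs of lists, the pair ranked 2 on chromosome 8, after WT and H455R with 166 sites. The next were K365T and R448Q with 68, R377C and H455R with 66, and K365T and H455R with 56. On the other chromosomes together R448Q and H455R ranked 15 with 416 sites, while WT and H455R ranked 1 with 2474. Adding 1 further list to the pair gave 47 sites with K365T, 36 with WT, 31 with R377H and 23 with R377C, and 7 to 12 with the others. Over the genome the order differed, with 314 for WT, 177 each for K365T and R377H, and 149 for R377C.

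**Figure D4:**
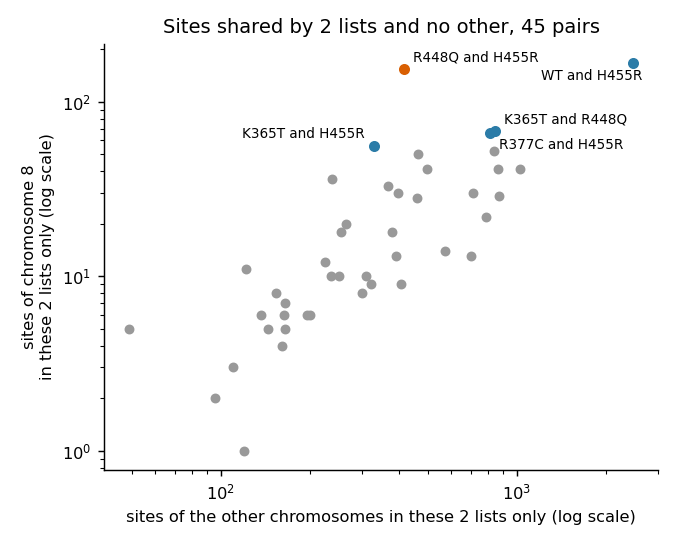
Number of sites held by exactly 2 lists, for the 45 pairs, on chromosome 8 (vertical, log scale) against the other chromosomes (horizontal, log scale). R448Q and H455R have 155 sites on chromosome 8 and 416 elsewhere, above other pairs with a similar number elsewhere.

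Of the 155 shared sites, 149 lay beyond 30 Mb (96.1%, against 81.8% of all sites of the chromosome) and 6 in the first 30 Mb, although R448Q was raised in both stretches. The 166 sites of WT and H455R split likewise, with 159 beyond and 7 before. Both sets consist of sites with an H455R peak, and the H455R profile set the border, so these splits are no separate support. The 155 shared sites are meant in what follows. The 155 were weak in both lists, with a median percentile of 22.4 in R448Q and 23.7 in H455R. The highest reached 68.2 and 72.3, and 0 were in the top 20% of either list. They lay at gene ends in 5.16% of cases (8 sites, interval 2.25 to 9.92), in gene bodies in 47.1% and between genes in 47.7%. Over all sites of the chromosome these shares were 10.6%, 50.6% and 38.8%. The low gene-end share was not particular to the pair: it was 4.82% for sites of WT and H455R only and 4.56% for WT alone.

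The strongest of the shared sites, ranked by the lower of their percentiles, lay inside Tll1, which encodes a tolloid-like metalloprotease, at chr8:64037704-64037987, with percentiles of 61.0 in R448Q and 66.0 in H455R. Its fold enrichment was 6.05 in R448Q and 6.36 in H455R. The site inside Nrg1, which encodes a ligand of ErbB receptors, had percentiles of 44.6 in R448Q and 72.3 in H455R. Others lay inside Nat3, Fto, which encodes an RNA demethylase, Sgcz, a sarcoglycan gene, and Abcc12, a transporter gene, and 73.9 kb from Psmd7, a proteasome subunit gene. None of these sites lay at a gene end.

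The 8 shared sites at gene ends belonged to Gsr, which encodes glutathione reductase, Gpm6a, Hmgb2, a chromatin protein gene, Gdf1, a growth factor gene, Cib3, Arhgap10, Slc10a7 and Ttc13. Their percentiles ran from 1.81 at Gdf1 to 30.2 at Gpm6a in R448Q. In H455R they ran from 1.01 at Hmgb2 to 27.0 at Gpm6a. They were chosen for their position after their values had been seen, and all 8 were weak in both lists.

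Among the genes with the most sites shared by the pair, or held by H455R or R448Q alone, most were large, while Fam149a, with 2 shared sites, spans 45.6 kb. Since they were picked for those sites, a high peak count in either list is part of the choice. Wwox, an oxidoreductase gene of 913 kb, held 5 of the shared sites and 17 of H455R alone. It had 67 peaks in WT, 45 in R339Q, 56 in R342C, 52 in S354F, 56 in K365T, 56 in R377C, 59 in R377H, 45 in Q418R, 71 in R448Q and 95 in H455R. Tenm3, a teneurin gene of 1297 kb, had 103 peaks in WT, 115 in R448Q and 127 in H455R, and 64 to 90 in the other 7. Cdh13, which encodes a cadherin without a transmembrane domain, had 91 peaks in H455R and 66 in R448Q, against 45 to 64 in the other 8. Zfhx3, a homeobox factor gene, had 98 in H455R and 77 in R448Q, against 50 to 73. Csmd1 lies in the first 30 Mb and had 29 peaks in R448Q, against 15 in H455R and 13 to 20 in the other 8.

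Genes of the chromosome known for roles in stem cells and development were open at their ends in every list. All 5 genes of the naive and epithelial list, Zfp42 and Cdh1 among them, had a gene-end peak in all 10 lists. So did 12 of 13 signalling genes, the exception being Nrg1, and 12 of 14 developmental factors, without Zfhx3 and Foxl1. All 13 chromatin and cell cycle genes and all 8 stress and metabolism genes did so, and 7 of 8 cadherins, without Cdh13. In contrast 4 of 52 defensins, genes of antimicrobial peptides, and 0 of 17 carboxylesterases did. Over the chromosome 785 of 1043 protein-coding genes (75.3%) had such a peak in all 10 lists, against 64.7% over the genome. The lists count 843 of these genes in WT, 801 in R339Q, 848 in R448Q and 852 in H455R, and 827 to 838 in the other 6.

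Ctcf itself lies on chromosome 8, beyond 30 Mb, and its gene-end peak stood between the 77.2nd percentile of Q418R and the 86.7th of H455R. Gab1, an adaptor of receptor tyrosine kinases, ran from the 88.6th percentile in Q418R to the 94.2nd in H455R. Vegfc, a growth factor gene of lymphatic vessels, ran from 78.3 in R377C to 84.2 in Q418R at its gene end. Within the Vegfc gene H455R had 9 peaks and the other 9 lists 1 to 4. The levels at these gene ends were close to each other, and no replicate spread is available to rank them.

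Within-list ranks are not counts of peaks, but they come from the same lists and depend on which peaks a list holds. They are therefore no separate support. At the 4253 sites of all 10 lists, the percentile in H455R exceeded the median of the other 9 lists by 2.52 points (median over sites), and 69.8% of sites were higher. On the other autosomes the same median ran from 1.21 to 1.81. It was 1.48 points in the first 30 Mb of chromosome 8 and 2.78 points beyond. For R448Q it was 0.06 points, within the range of -1.15 to 0.24 of the other autosomes. WT stood at 2.29, with 1.95 to 3.52 on the other autosomes, and the other 7 lists between -3.37 and 0.70. H455R was the only 1 of the 10 lists in which chromosome 8 stood above the highest other autosome with the median of the other 9 lists as reference. The size depended on the setting: with lists of equal size H455R had 0.68 points, against -0.49 to 0.10 on the other autosomes, and against WT alone 0.19 points, against -1.28 to -0.55. The R448Q value changed sign in the same settings. With lists of equal size it was -0.069, within -1.45 to 0.28 on the other autosomes. Against WT alone it was -1.54, above the -3.70 to -1.62 of the other autosomes, so in that setting chromosome 8 stood highest in both lists.

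Peaks also covered more bases per site at these sites beyond 30 Mb in H455R. The widths of all peaks of a list in a site were summed, so wider peaks and more peaks per site are not told apart. The log2 of this summed width over the median of the other lists was 0.08 there, -0.00 in the first 30 Mb and -0.01 to 0.02 on the other autosomes. In R448Q it was 0.09 on chromosome 8, within 0.01 to 0.10 on the other autosomes.

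The sites whose percentile exceeded that of the other lists by most were of low or middle rank in those lists. A site inside Galnt7, which encodes a glycosyltransferase that starts O-linked sugar chains, stood at the 77.7th percentile in H455R and between 14.5 and 59.8 in the other 9 lists. A site 21.7 kb from Mon1b stood at 85.1 in H455R and between 24.1 and 72.4 elsewhere. In R448Q a site inside Zfp469 stood at 62.8, against 1.19 to 25.1, and the gene-end site of Aadat, an aminotransferase gene, at 92.7, against 12.2 to 72.6. The gene-end site of Polr2c, a subunit gene of RNA polymerase II, stood at 70.5 in R448Q, against 9.19 to 41.9. These sites were picked as the largest excesses among 4253, lower percentiles were not ranked, and they have no replicate check.

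Fewer WT sites were missing from H455R beyond 30 Mb than elsewhere. Of 6583 WT sites there, H455R lacked 685 (10.4%, interval 9.68 to 11.2). It lacked 318 of 1543 (20.6%) in the first 30 Mb and 19.3% on the other autosomes. R448Q lacked 19.6% beyond 30 Mb and 19.8% in the first 30 Mb, against 28.0% on the other autosomes. Smaller gaps in the same direction were present in all the other mutant lists, in both stretches. K365T lacked 23.9% beyond 30 Mb and 24.9% before, against 28.0% on the other autosomes, and Q418R 27.9% and 25.6%, against 30.5%. In R377H the gap was slight, with 25.3% beyond 30 Mb and 25.1% before, against 25.6%.

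The difference was largest, in percentage points, in the weak and middle sites, and it was present in stronger ones too. Of the weakest 20% of WT sites beyond 30 Mb, H455R lacked 30.2% (364 of 1207), against 48.8% in the first 30 Mb and 48.6% on the other autosomes. R448Q lacked 48.5%, 48.1% and 59.6%. Of the middle 20% of WT sites, H455R lacked 5.84% beyond 30 Mb and 15.0% on the other autosomes, and R448Q 16.1% and 27.6%. Of the 20% above the middle, H455R lacked 1.1% beyond 30 Mb and 2.71% on the other autosomes, and R448Q 3.83% and 8.75%. Of the strongest 20% beyond 30 Mb, H455R lacked 0 of 1324, which allows up to 0.278%, against 0.119% on the other autosomes. R448Q lacked 2 of these (0.151%), against 0.914% on the other autosomes. Over single chromosomes other than 8, the weakest 20% was missing from H455R in 45.7% to 51.5% of cases and from R448Q in 45.8% to 66.0%, with chromosomes 1 and 3 lowest in R448Q.

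**Figure D5:**
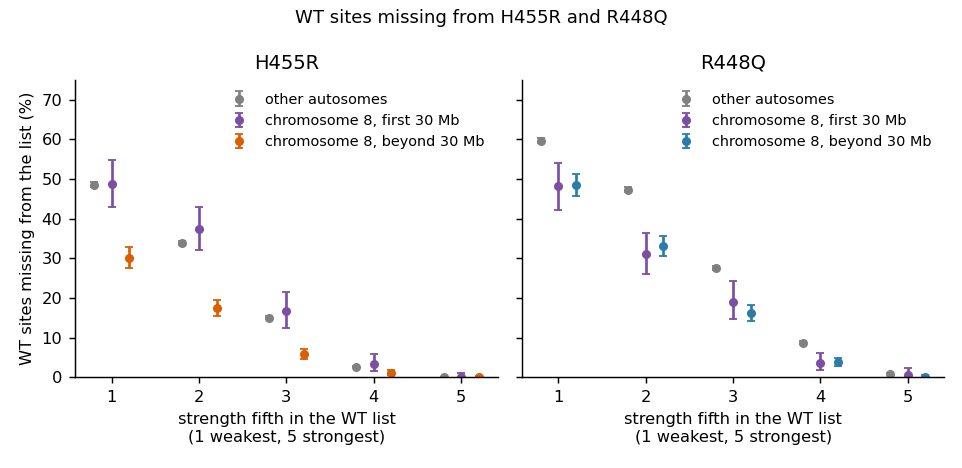
Share of WT sites (%) with no peak in H455R (left) or R448Q (right), by 20% step of WT strength, for chromosome 8 before and beyond 30 Mb and for the other autosomes, with exact 95% intervals over sites. In the weakest step H455R lacks 30.2% beyond 30 Mb and 48.8% before, while R448Q lacks 48.5% and 48.1%.

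Sites that WT lacks were counted as well. These shares and those of missing WT sites depend on the peak numbers that chose the chromosome and set the 30 Mb border. They are therefore no separate support. Of the H455R sites beyond 30 Mb, 26.2% had no WT peak, against 12.1% in the first 30 Mb and 12.3% on the other autosomes. For R448Q the values were 21.7%, 23.7% and 14.1%, and for K365T 11.4%, 11.6% and 8.52%. All 9 mutants held, and WT lacked, 14 sites on the chromosome. The strongest of them lay inside Rasa3, which encodes a Ras GTPase-activating protein, at chr8:13587400-13588190, with percentiles from 61.3 in S354F to 88.0 in R377H.

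Sites that 9 lists held and 1 lacked were rarest for H455R (10) and WT (14) and most numerous for R339Q (220) and Q418R (169). R448Q lacked 42 of them, K365T 92 and the other 4 lists 18 to 58. Over the genome such sites numbered 195 for WT, 253 for R377C, 669 for H455R, 1955 for R448Q, 3336 for Q418R and 3656 for R339Q. The strongest missing from R448Q lay 141 kb from Zmat4 at chr8:24204285-24204815, where the other lists ran from the 24.2nd percentile in K365T to the 92.0th in R377C. The strongest missing from H455R lay 133 kb from Myo16, in the first 30 Mb, with percentiles of 50.1 to 84.8 in the other lists. That missing from R339Q lay 12.1 kb from the adaptor gene Dok4, with percentiles of 48.5 to 90.6 elsewhere. Tusc3, which encodes a subunit of the oligosaccharyltransferase complex, held the one missing from Q418R, at 58.0 to 88.3 elsewhere. Ces1b, a carboxylesterase gene, held the one missing from K365T, at 52.8 to 81.8 elsewhere. Sites absent from a single list thus ranged widely in rank among the lists that held them.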

How the data were processed

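Omni-ATAC was measured in 20 samples, 2 replicates of 10 genotypes, with 50000 cells per reaction and 150 bp paired-end reads, per the labels' protocols. Trim Galore, Bowtie2, MACS2, deepTools and mm10 are named, per the submitters' processing notes, without versions, duplicate handling or a calling threshold. Each list deposited by the authors holds a position, a name and a value per peak, read from its steps as MACS2 fold enrichment, a ratio. It is the authors' value and was used only to rank or filter peaks within a list. Read totals were not used here. Expected coverage was computed as 1/step minus 1 from the fold steps, on which 28.9% to 33.8% of values lay (tolerance 1.1e-05).

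Peaks were merged by overlap of at least 1 bp, located against 21887 protein-coding genes of a RefSeq table (GRCm38.p6), and counted in 5 Mb bins with a median of at least 50 peaks. No test between genotypes was run. Named sites were the 8 strongest shared by R448Q and H455R only, the strongest of each list alone (4 for R448Q and H455R), the 8 strongest in all 10 lists, the strongest missing from 1 list, and the 5 largest percentile differences of H455R and of R448Q. Not all of these are printed, and 1 is not reported here. Other genes came from lists, or were named after their values were seen. The members, gene lists and rules were chosen with earlier results of these data known. Alternatives covered stronger peaks, equal list size, covered base pairs, other references, bins, thresholds and overlaps. Scripts were tested on simulated data. Python 3.11.15, pandas 2.3.3, numpy 2.4.6, scipy 1.17.1 and matplotlib 3.10.9 were used.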

Additional observations from a re-analysis of the deposited data

How the results depend on the processing

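The log2 share of chromosome 8 stayed above 0 in every setting tried. With the stronger 50% of each list it was 0.21 in H455R and 0.19 in R448Q, with lists of equal size 0.21 in H455R, and with WT as reference 0.29 and 0.27. Against autosomes within 0.15 (log2) in every list, a denominator chosen after the data were seen, R448Q reached 0.32. Of 55 bins of 2 Mb, 41 (H455R) and 36 (R448Q) were raised. Over the genome, chromosome 8 included, 68 (6.10%) and 229 (20.5%) of 1115 such bins were. Of 13 bins of 10 Mb, 10 (H455R) and 9 (R448Q) were raised. Over the genome, chromosome 8 included, 10 (3.82%) and 46 (17.6%) of 262 were, so all those of H455R lay on chromosome 8. A threshold of 0.3 left R448Q with 10 bins of 5 Mb. The percentile difference of H455R was 3.00 with the stronger 50%, 0.68 with lists of equal size and 0.19 against WT alone. That of R448Q changed sign, to -0.097, -0.069 and -1.54 in the same settings, and was 0.32 with the H455R list left out of the reference. The stronger 50% of each list gave 6213 sites on chromosome 8, with 56 shared by R448Q and H455R only and 2165 in all 10 lists. With all peaks these were 155 and 4253 of 12373. Some settings also change the number of peaks or bins, and the cause of these shifts was not tested. Of the 104 shared sites found with lists of equal size, 100 lay beyond 30 Mb. The H455R percentile difference exceeded that of each other autosome in the settings with the stronger 50%, equal list size and WT as reference, and that of R448Q did so with WT as reference.

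No paired analysis was possible because each deposited list pools both replicates, and for the same reason leaving out each replicate was not run. Sites held by H455R alone, by R448Q alone or by these lists only were mostly weak. The raised share of chromosome 8 was not limited to weak peaks: with the stronger 50% it was still 0.21 (log2) in H455R and 0.19 in R448Q. Read totals, which would show how firmly weak peaks were called, were not used here.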
